A study of Gallus gallus with 6 samples.

Results

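The cytosolic ribosomal protein genes were taken from the deposited tables of HD11 cells by symbol, as the RPL and RPS genes, the stalk genes RPLP0, RPLP1 and RPLP2, and RPSA, without the kinases of the RPS6K family. The rule found 72 of the 14903 genes listed, 44 of the large and 28 of the small ribosomal subunit. Of these, 71 passed the filter on low counts and were tested. The member that did not pass was RPL3L. RPL10, RPL13A and RPL41 matched no symbol and are not analysed here.

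HD11 is a chicken macrophage-like cell line that was transformed by an avian retrovirus carrying the v-myc oncogene. The 6 wild type libraries came from cells left untreated (mock, 3 libraries) or exposed for 3 h to 100 ng/mL of the recombinant chicken cytokine IFN-beta, a type I interferon (3 libraries), and the labels place all 6 in 1 batch. No duration is recorded for the mock cells, and the material is a single cell line. Total counts were 15665594 to 15885227 per library. Of 10 macrophage markers 9 were found and 8 had a mean above 1 TPM (a level scaled to transcript length and library). Their summed TPM ran from 2833 to 2929 in the mock libraries and from 3607 to 3646 in the IFN-beta libraries, and the part of this difference in the results below was not tested. The found markers of T cells (3 of 6), fibroblasts (4 of 6) and epithelial cells (2 of 5) summed to at most 1.59, 0.13 and 0.4 TPM, those of B cells (4 of 5) to between 6.09 and 7.51 under mock against between 5.13 and 5.76 under IFN-beta, and those of erythroid cells (2 of 5) to between 7.27 and 8.01 against between 5.97 and 6.37. No found marker was at 0 in all libraries. All 8 interferon-response genes checked rose, with a median log2 fold change of 3.82.

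Ribosomal proteins assemble with ribosomal RNA in the nucleolus into the large and small subunits, and a working ribosome needs nearly all of them in matched amounts. Their mRNAs are among the most abundant of any dividing cell, and in vertebrates they begin with an oligopyrimidine tract (TOP mRNAs) through which the kinase mTOR and the RNA-binding protein LARP1 set how much of the mRNA is translated or kept in store. The tables hold mRNA levels and say nothing of translation.

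Ribosomal protein mRNAs were among the most abundant in HD11 cells. The mean over the 6 libraries ranged from 166 to 7885 TPM among the 71 tested members, with a median of 3320 TPM (quartiles 2508 and 4643 TPM), against a median of 17.2 TPM over the 11091 genes tested. Members took 40 of the 50 highest places and 64 of the 100 highest, and 66 members exceeded 1000 TPM. The median was 3016 TPM for the 43 tested members of the large subunit and 4066 TPM for the 28 of the small subunit.

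The highest mean levels on the TPM scale were those of RPL27, RPS25, RPL37A, RPS16 and RPL23A. RPL27, a large subunit protein, stood at 7879, 7778 and 7975 TPM in mock replicates 1 to 3 and 7785, 8038 and 7855 TPM in IFN-beta replicates 1 to 3. RPS25, a small subunit protein that in human cells some viral mRNAs need for initiation, stood at 7543, 7674 and 7919 TPM in mock and 7236, 7797 and 8152 TPM in IFN-beta. RPL37A had 7449 ± 105 and 7390.0 ± 70.7 TPM (mean ± SD, n = 3 in mock and in IFN-beta). RPS16, whose tail reaches the decoding site, had 7175 ± 79.6 and 7102 ± 162 TPM. RPL23A, which lies at the exit of the peptide tunnel where the signal recognition particle docks, had 6991 ± 82.95 and 6924 ± 104 TPM. In each of these 5 the TPM of the mock and IFN-beta libraries overlapped.

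A few members stood below the main body. RPL7L1 and RPL22L1, paralogs of RPL7 and RPL22, had means of 189 and 166 TPM, and RPL3L, a paralog of RPL3 that mammals use in heart and skeletal muscle, had 0.362 TPM. Singled out after their values were seen, RPL29 (302 TPM), RPL31 (848 TPM) and RPS14 (940.4 TPM) were the only other members under 1000 TPM. The implied length of a gene, taken here as its count over its TPM relative to the median gene tested, was 0.243 for RPL29, 0.234 for RPL31 and 0.281 for RPS14, against a median of 0.0863 over the tested members. For the same count, TPM is lower the longer this length. RPSA, RPL4, RPL3 and RPLP0 had longer implied lengths (0.287, 0.419, 0.383 and 0.286) and stood at 5752, 3997, 2654 and 2381 TPM. RPL7L1, at 0.453, was low. On CPM, a scale without length that is described below, RPL29, RPL31 and RPS14 had means of 148, 402 and 533. The median over the tested members was 664 CPM. RPSA, RPL4, RPL3 and RPLP0, at 3338.5, 3382, 2053 and 1374 CPM, lay above this median, and RPL7L1, at 173 CPM, lay below it. The part of length in these low levels was not tested. High levels and ranks on TPM depend on implied length too. RPS29, whose implied length was the shortest of the tested members (0.0181), had 86.3 CPM and 2363 TPM. Counts of RPL14, RPL31 and RPL17 were not whole in at least 1 library, as can happen where reads are divided between genes, and their levels are uncertain. In all, 68 members had whole counts in all 6 libraries.

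**Figure D1:**
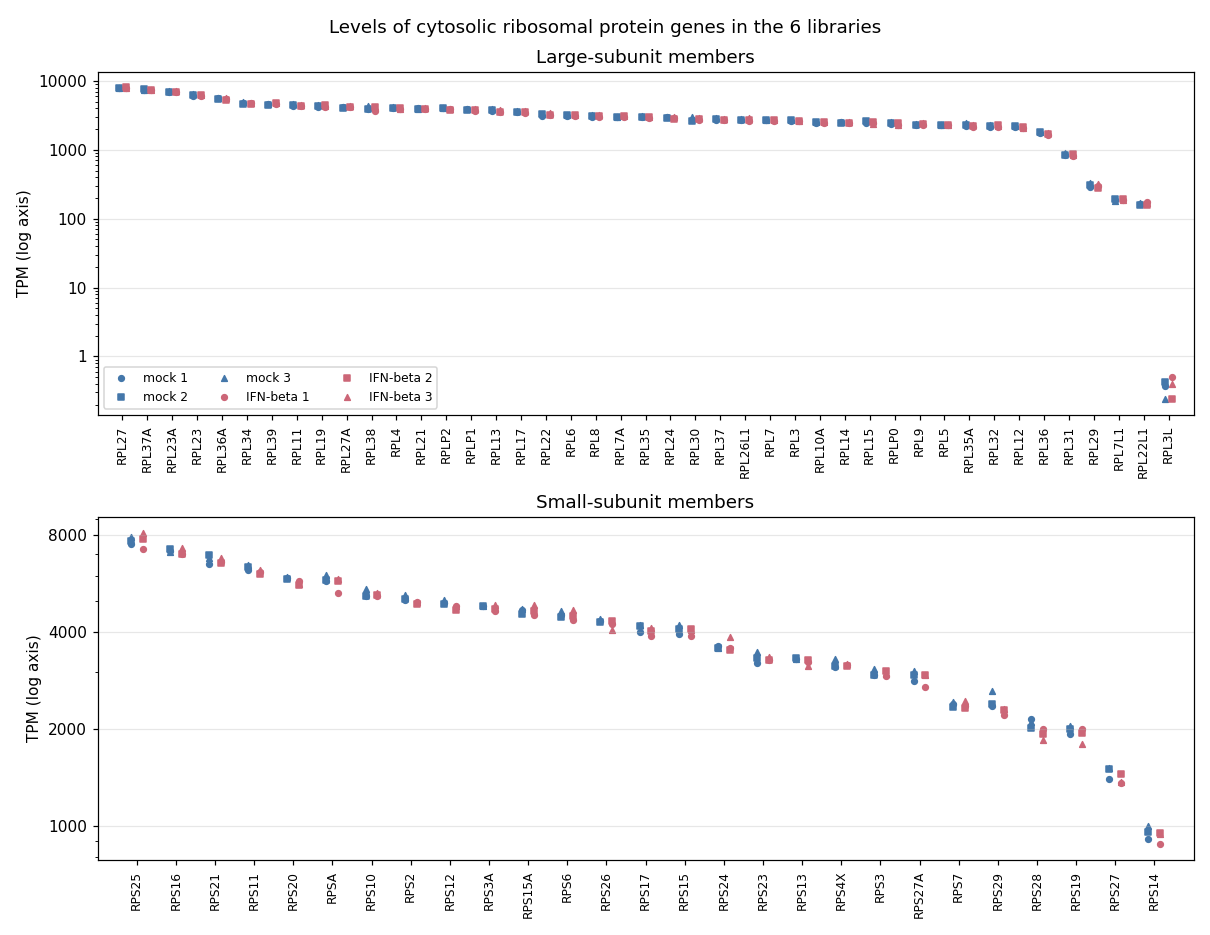
TPM (log axis) of the ribosomal protein genes described here in each library, ordered by mean TPM within the large and the small subunit, with blue for mock, red for IFN-beta and a marker shape for each replicate number. Most members lie above 1000 TPM, RPL3L lies below 1 TPM, and mock and IFN-beta overlap on this scale for 61 of the 71 tested members.

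The share of the transcriptome held by these genes did not separate the groups. Members held 5.42%, 5.59% and 5.98% of all counts in mock replicates 1 to 3 and 5.37%, 5.68% and 5.87% in IFN-beta replicates 1 to 3, which is 5.66 ± 0.288% and 5.64 ± 0.254% (SD, n = 3). On the TPM scale they held 25.8%, 26.0% and 26.7% in mock and 25.4%, 25.8% and 26.2% in IFN-beta (26.2 ± 0.442% and 25.8 ± 0.443%). The groups differed by -0.0213 percentage points of counts and -0.375 points of TPM, both within 1 SD of the libraries of a group. Between libraries of the same replicate number the share of TPM was lower under IFN-beta each time. The share of counts was higher under IFN-beta for replicate 2 and lower for the others. The labels do not pair these libraries. No p is given for these shares.

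Libraries of the same group differed more than the group means did, and in a shared way. Levels in the comparisons are CPM, counts relative to a library size that TMM factors adjust so that most genes are set equal. These factors ran from 1.03 to 1.04 for the mock libraries and from 0.963 to 0.973 for the others. Over the 71 tested members the mean log2 CPM was 9.06, 9.105 and 9.21 in mock replicates 1 to 3 and 9.13, 9.22 and 9.29 in IFN-beta replicates 1 to 3. Mock replicate 3 was the highest mock library for 70 of 71 members and IFN-beta replicate 3 the highest IFN-beta library for 63, while the same libraries were highest for 34.5% and 34.8% of all genes tested. For 64 members IFN-beta replicate 1 lay below mock replicate 3. The coefficient of variation between libraries of a group had a median of 5.60% in mock and 5.69% in IFN-beta over the members, against 5.19% and 4.67% over all genes tested.

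**Figure D2:**
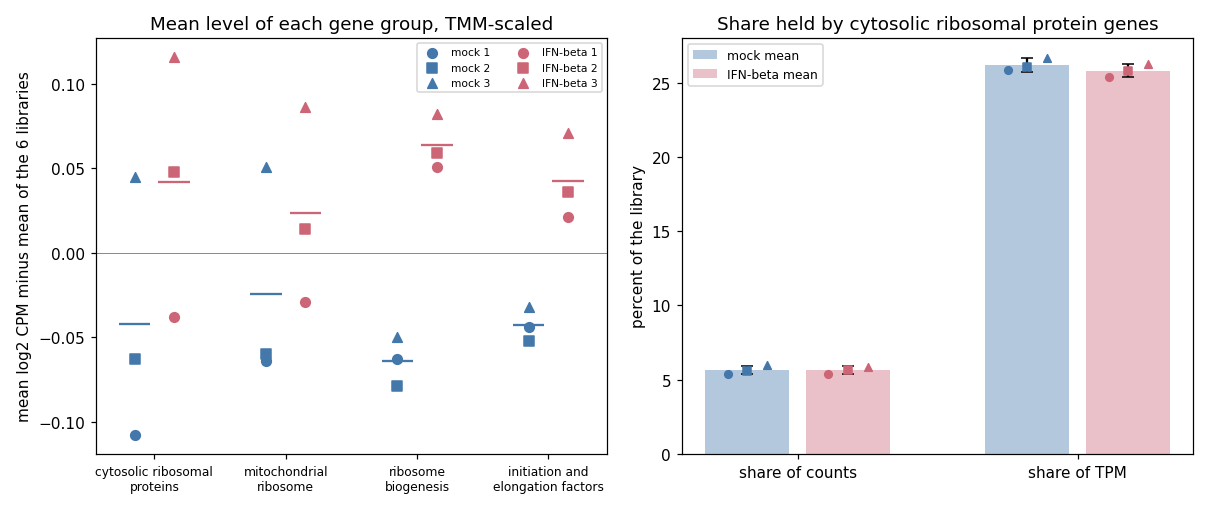
Left, the mean log2 CPM of 4 gene groups in each library minus the mean of the 6 libraries, with a line at each group mean; right, bars with the mean share of counts and of TPM held by the ribosomal protein genes, with SD and the 3 libraries as points. Ribosomal protein genes overlap between the groups on the left, and their shares of counts are 5.66% and 5.64%.

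The IFN-beta libraries were then compared with the mock libraries gene by gene, with TMM scaling first. Differences were small in every member. Log2 fold changes of IFN-beta over mock ranged from -0.02 to 0.14 over the 71 tested members with a median of 0.09, with quartiles of 0.06 and 0.11, whereas the quartiles over all genes tested were -0.18 and 0.15. The lowest lower limit of the members' 95% intervals corresponded to 0.895-fold and the highest upper limit to 1.21-fold. These intervals are per gene and not adjusted for the number of genes.

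With TMM scaling 17 members rose, none fell and 54 did not pass edgeR's quasi-likelihood test at a Benjamini-Hochberg adjusted p under 0.05, but none rose with library size alone, with upper quartile factors or with limma on log2(TPM + 1). With TMM 23.9% of the members rose beside 24.3% of all genes tested, while 22.4% of all genes fell (46.7% called in all). Of all genes tested, 15.6% rose and 36.1% fell with library size alone (51.8% called), 18.2% and 30.3% with upper quartile factors (48.5%), and 13.5% and 37.6% on log2(TPM + 1) (51.2%), where 2 members fell. At an unadjusted p under 0.05, library size alone gave 0 members higher and 1 lower in edgeR. The median log2 fold change was 0.09 with TMM, 0.03 with upper quartile factors, -0.004 with library size alone and -0.02 on log2(TPM + 1). All genes tested had medians of -0.001, -0.06, -0.09 and -0.10 in the same order. The members thus stood 0.08 to 0.09 above the median gene under each. A scaling moves all genes nearly alike, so this gap could hardly differ between scalings, and their agreement is no support. With TMM and 1 library left out the gap ran from 0.054 (without mock replicate 1) to 0.133 (without mock replicate 3). On log2(TPM + 1) without the filter on low values it was 0.033. At an unadjusted p under 0.05, edgeR with TMM gave 30 members higher and 0 lower. The share of all genes at an unadjusted p is not given here, so neither unadjusted count can be read as a result about the members. DESeq2 called 14 higher and 0 lower, all 14 among the 17, against 20.8% and 18.2% of all genes (39.0% called). At an adjusted p under 0.05 the authors' deposited table lists 14 of the 72 members as higher and 0 as lower, with a median log2 fold change of 0.09, against 14.8% and 12.3% of all its genes (27.1% called). In fits that left out 1 library, and so had fewer libraries, the count of members that rose varied. It was 6 without mock replicate 1, 2 without mock replicate 2, 62 without mock replicate 3, 44 without IFN-beta replicate 1, 6 without IFN-beta replicate 2 and 1 without IFN-beta replicate 3. These are 8.45%, 2.82%, 87.3%, 62.0%, 8.45% and 1.41% of the members, while 23.2%, 21.0%, 25.1%, 23.4%, 21.1% and 20.8% of all genes rose in the same fits. The median log2 fold change of the members was 0.052, 0.086, 0.135, 0.133, 0.092 and 0.053 in the same order. The count thus also fell where the median hardly moved, without mock replicate 2 or IFN-beta replicate 2.

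On TMM-scaled CPM every IFN-beta library lay above every mock library for 6 members, against 27.5% of all genes tested, and below for 0, against 26.3%. The other 65 overlapped. On TPM this turned round, with 0 members above, against 15.6% of all genes, and 10 below, against 41.6%. These 10 were RPL4, RPL12, RPL35, RPLP2, RPS2, RPS12, RPS13, RPS20, RPS28 and RPS29. In bulk RNA, fewer cells of a kind and less RNA per cell cannot be told apart, and every value here is relative to the rest of the library.

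**Figure D3:**
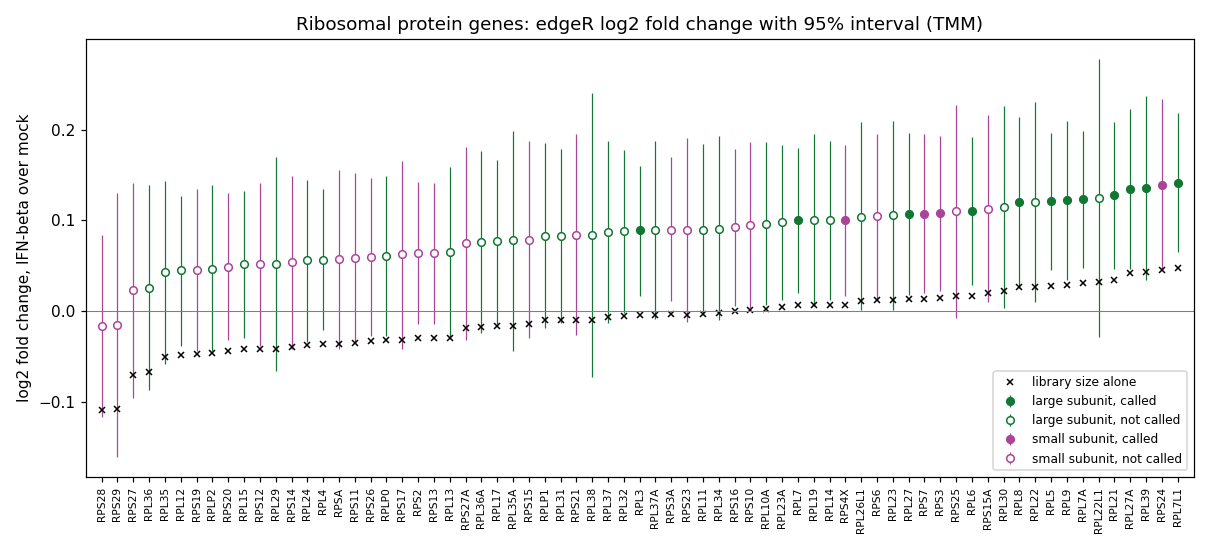
The log2 fold change of IFN-beta over mock for the tested members described here with its 95% interval (edgeR, TMM), filled where called, in green for the large and purple for the small subunit, with crosses for library size alone. TMM values run from -0.02 to 0.14, and with library size alone they run from -0.11 to 0.05, with no member called.

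All calls and overlaps of single members that follow are with TMM scaling and without the replicate number as a block, where 17 rose. The labels do not pair the libraries by that number. With the block 54 members (76.1%) rose, against 27.7% of all genes. These included RPLP0, RPLP1, RPS6, RPL11, RPL22, RPS25, RPS27A, RPL38, RPL4, RPL37A, RPL23A, RPS16 and RPL26L1, given below as not passing. RPLP2, RPSA, RPS19, RPL22L1, RPS28 and RPS29 stayed uncalled with the block. Among the 17 called without the block, 12 belonged to the large subunit (27.9% of its 43 tested members) and 5 to the small (17.9% of 28). Of all genes tested 24.3% rose, and the difference between the subunits was not tested. RPL7L1 was the only one of the 17 to stay called without any single library. RPL7A lost its call without IFN-beta replicate 3, RPL5, RPL21, RPL27A and RPS24 lost it without mock replicate 2 or IFN-beta replicate 3, and the other 11 lost it without mock replicate 1, mock replicate 2, IFN-beta replicate 2 or IFN-beta replicate 3. Without IFN-beta replicate 3 the log2 fold change was below the full value by over 1.5 times in RPS24 (0.07), RPS7 (0.06), RPL39 (0.085), RPL8 (0.08) and RPL9 (0.08). The largest change with all libraries was in RPL7L1, the paralog of RPL7, with 164, 165 and 164 CPM in mock replicates 1 to 3 and 176, 184 and 184 CPM in IFN-beta replicates 1 to 3. Its groups did not overlap and its 3 mock libraries lay close together. The edgeR adjusted p was 0.00346 after Benjamini-Hochberg adjustment (log2 fold change 0.14, SE 0.04). RPL39, a short protein that lines the peptide exit tunnel and that RefSeq names RPL39L at this identifier, stood at 194, 193 and 211 CPM in mock and 203, 220.3 and 235 CPM in IFN-beta. IFN-beta replicate 1 lay within the mock range and the other 2 above it (log2 fold change 0.14, SE 0.05, edgeR adjusted p 0.0274).

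RPL27A, a large subunit protein, stood at 737, 730.4 and 789.8 CPM in mock and 781, 822 and 877 CPM in IFN-beta, and IFN-beta replicate 1 lay within the mock range (log2 fold change 0.14, SE 0.04, edgeR adjusted p 0.0123). RPL21 stood at 685, 672 and 704 CPM in mock and 716, 742 and 793 CPM in IFN-beta, with no overlap (log2 fold change 0.13, SE 0.04, edgeR adjusted p 0.0102). RPL7A, a core large subunit protein, stood at 1160.2, 1162 and 1216 CPM in mock and 1230.4, 1299 and 1325 CPM in IFN-beta, again with no overlap (log2 fold change 0.12, SE 0.04, edgeR adjusted p 0.00857). These 3 rose by 8.94 to 9.84%.

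RPL5 and RPL11 join the smallest ribosomal RNA of the large subunit and, in mammals, hold the p53 inhibitor MDM2 in check when ribosome assembly fails. RPL5 rose, with 1047, 1042 and 1101 CPM in mock and 1114, 1169.8 and 1187 CPM in IFN-beta and no overlap between the groups (log2 fold change 0.12, SE 0.04, edgeR adjusted p 0.00928). RPL11 had 815, 843 and 909 CPM in mock and 859, 899.9 and 972 CPM in IFN-beta, and only IFN-beta replicate 3 lay above the mock range. It did not pass (log2 fold change 0.09, SE 0.04, edgeR adjusted p 0.111). The difference between the changes of RPL5 and RPL11 was not tested.

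The other large subunit members that rose were RPL9, RPL8, RPL6, RPL27, RPL7 and RPL3. RPL3, which reaches towards the peptidyl transferase centre, had 1939.8, 1978 and 2052 CPM in mock and 2078, 2109 and 2161 CPM in IFN-beta and was the only one of these 6 without overlap (log2 fold change 0.09, SE 0.03, edgeR adjusted p 0.0397). RPL8, another protein near that centre, had 1207, 1263 and 1349.8 CPM in mock and 1296, 1389 and 1466 CPM in IFN-beta (log2 fold change 0.12, SE 0.04). RPL9 had 723, 734 and 788 CPM in mock and 772, 809 and 862 CPM in IFN-beta (log2 fold change 0.12, SE 0.04). In RPL8 and RPL9 IFN-beta replicate 1 lay within the mock range and the other 2 lay above it.

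RPL6 had 1447, 1484 and 1560.0 CPM in mock and 1542, 1619 and 1688 CPM in IFN-beta (log2 fold change 0.11, SE 0.04). RPL7, the parent of RPL7L1, had 987, 993 and 1053 CPM in mock and 1036, 1085 and 1129.9 CPM in IFN-beta (log2 fold change 0.10, SE 0.04). RPL27, the member with the highest TPM, had 803, 817 and 886 CPM in mock and 846, 919 and 933 CPM in IFN-beta (log2 fold change 0.11, SE 0.04). All 3 showed the arrangement of RPL8 and RPL9, with IFN-beta replicate 1 inside the mock range. On log2(TPM + 1) the log2 fold changes of RPL3, RPL7 and RPL6 were below 0, at -0.026, -0.012 and -0.003. The edgeR adjusted p of the 5 overlapping members was 0.0223 for RPL9, 0.0347 for RPL8, 0.025 for RPL6, 0.0459 for RPL27 and 0.038 for RPL7.

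Of the small subunit, 5 members rose with TMM scaling, among them RPS24, RPS3, RPS7 and RPS4X. RPS24, which is mutated in some human cases of Diamond-Blackfan anaemia, stood at 854, 856 and 892 CPM in mock replicates 1 to 3 and 899, 924 and 1044 CPM in IFN-beta replicates 1 to 3. The groups did not overlap, and IFN-beta replicate 3 stood apart from the other libraries (log2 fold change 0.14, SE 0.04, edgeR adjusted p 0.0156).

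RPS3, a protein of the mRNA entry channel, had 1072, 1084 and 1182 CPM in mock and 1144, 1225 and 1228 CPM in IFN-beta (log2 fold change 0.11, SE 0.04, edgeR adjusted p 0.0362). RPS7 had 574, 571 and 619 CPM in mock and 606, 623 and 672 CPM in IFN-beta (log2 fold change 0.11, SE 0.04, edgeR adjusted p 0.0418). RPS4X, named for its place on the human X chromosome and named RPS4Y1 by RefSeq at this identifier, had 1168, 1191 and 1295 CPM in mock and 1268, 1301 and 1346 CPM in IFN-beta (log2 fold change 0.10, SE 0.04, edgeR adjusted p 0.046). In all 3 IFN-beta replicate 1 lay within the mock range. On log2(TPM + 1) RPS3, RPS7 and RPS4X had log2 fold changes below 0, at -0.004, -0.003 and -0.011.

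The stalk proteins did not pass without the replicate block. RPLP0 is the base of the stalk that recruits elongation factors, and RPLP1 and RPLP2 are its acidic arms. RPLP0 had 1275, 1324 and 1436 CPM in mock and 1344, 1449.9 and 1415 CPM in IFN-beta (log2 fold change 0.06, SE 0.04). RPLP1 had 345, 344 and 380.1 CPM in mock and 349, 379 and 405 CPM in IFN-beta (log2 fold change 0.08, SE 0.05), and RPLP2 had 374, 394 and 416 CPM in mock and 387, 404 and 433 CPM in IFN-beta (log2 fold change 0.05, SE 0.04). Each had a single IFN-beta library above the mock range. The TPM of RPLP1 relative to RPLP0 was 1.59 ± 0.0626 in mock and 1.62 ± 0.0607 in IFN-beta (SD, n = 3), and that of RPLP2 relative to RPLP0 was 1.66 ± 0.0505 and 1.66 ± 0.0616, so each ratio differed between the groups by less than 1 SD. The edgeR adjusted p was 0.25, 0.171 and 0.4 for RPLP0, RPLP1 and RPLP2.

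RPS6 and RPSA did not pass either. RPS6, the substrate of the S6 kinases downstream of mTOR, had 1805, 1804 and 1947 CPM in mock and 1863, 1993 and 2118 CPM in IFN-beta. The values of IFN-beta replicates 2 and 3 lay above the mock range (log2 fold change 0.10, SE 0.04, edgeR adjusted p 0.0548). RPSA, also known as the laminin receptor and named RPSAP58 by RefSeq at this identifier, had 3161, 3205 and 3450.1 CPM in mock and 3112, 3492 and 3611 CPM in IFN-beta. Its IFN-beta replicate 1 was the lowest of the 6 libraries and IFN-beta replicate 3 the highest (log2 fold change 0.06, SE 0.05, edgeR adjusted p 0.336).

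RPS27A, made as a fusion of ubiquitin with a small subunit protein, had 662, 699.6 and 753 CPM in mock and 675, 767 and 785 CPM in IFN-beta (log2 fold change 0.07, SE 0.05, edgeR adjusted p 0.242). RPS25 had 963, 1006 and 1094 CPM in mock and 986, 1114 and 1205 CPM in IFN-beta (log2 fold change 0.11, SE 0.06, edgeR adjusted p 0.116). In both, IFN-beta replicates 2 and 3 lay above the mock range and IFN-beta replicate 1 within it. RPS19, the gene most often mutated in human Diamond-Blackfan anaemia, had 256, 272 and 293 CPM in mock and 282, 289 and 276 CPM in IFN-beta, all 3 IFN-beta values inside the mock range (log2 fold change 0.05, SE 0.04, edgeR adjusted p 0.407). RPL38, which in mouse embryos affects translation of Hox mRNAs, had 138, 146 and 174 CPM in mock and 139.8, 169 and 176 CPM in IFN-beta. It had the widest error of the tested members (log2 fold change 0.08, SE 0.07, edgeR adjusted p 0.38).

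RPL4, a large protein that lines the exit tunnel, had 3193, 3291 and 3462 CPM in mock and 3322, 3514 and 3510.5 CPM in IFN-beta (log2 fold change 0.06, SE 0.04, edgeR adjusted p 0.225). RPL37A had 403, 430.1 and 459 CPM in mock and 432, 455 and 488 CPM in IFN-beta (log2 fold change 0.09, SE 0.05, edgeR adjusted p 0.126). RPL23A had 998, 1010.0 and 1084 CPM in mock and 1045, 1105 and 1158 CPM in IFN-beta (log2 fold change 0.10, SE 0.04, edgeR adjusted p 0.0583), and RPS16 had 1062, 1108 and 1142 CPM in mock and 1113, 1167 and 1252 CPM in IFN-beta (log2 fold change 0.09, SE 0.04, edgeR adjusted p 0.0732). The groups of all 4 overlapped.

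The lowest log2 fold changes were those of RPS28 and RPS29, short proteins of the small subunit head, which are singled out after their values were seen because they alone were below 0 with TMM scaling. RPS28 had 90.3, 87.9 and 98.7 CPM in mock replicates 1 to 3 and 89.6, 91.2 and 92.97 CPM in IFN-beta replicates 1 to 3, with every IFN-beta value inside the mock range (log2 fold change -0.02, SE 0.05, edgeR adjusted p 0.809). RPS29 had 78.8, 83.2 and 98.3 CPM in mock and 78.6, 86.1 and 92.8 CPM in IFN-beta, where mock replicate 3 was the highest and IFN-beta replicate 1 the lowest (log2 fold change -0.02, SE 0.07, edgeR adjusted p 0.878). With limma on log2(TPM + 1) these 2 were the members called lower (log2 fold change -0.12 and -0.11, limma adjusted p 0.0187 and 0.0351). RPS28 had 2089 ± 70.9 and 1929 ± 73.5 TPM and RPS29 had 2456 ± 144 and 2271 ± 56.8 TPM in mock and IFN-beta. Neither passed in edgeR with library size alone, nor on log2(TPM + 1) without the filter on low values.

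The ratios of RPL22L1 to RPL22 and of RPL7L1 to RPL7 differed between the groups by less than 1 SD of the mock libraries. RPL22L1, which in mouse can stand in for RPL22, had 20.8, 20.7 and 22.8 CPM in mock and 23.3, 22.2 and 24.6 CPM in IFN-beta, and its mock replicate 3 lay above IFN-beta replicate 2 (log2 fold change 0.12, SE 0.07, edgeR adjusted p 0.174). RPL22 had 271, 292 and 316 CPM in mock and 297, 314 and 345 CPM in IFN-beta, with only IFN-beta replicate 3 above the mock range (log2 fold change 0.12, SE 0.05, edgeR adjusted p 0.07). The TPM of RPL22L1 was 0.0508 ± 0.00182 of that of RPL22 in mock and 0.0509 ± 0.00273 in IFN-beta (SD, n = 3). For RPL7L1 and RPL7 this ratio was 0.0688 ± 0.0024 and 0.0707 ± 0.00133, a difference larger than the SD of the IFN-beta libraries.

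RPL26 matched no symbol and is not analysed here, while RPL26L1 stood at a level within the quartiles of the members, with 370.1, 376 and 405 CPM in mock and 382, 404 and 451 CPM in IFN-beta and a mean of 2733 TPM (log2 fold change 0.10, SE 0.05, edgeR adjusted p 0.0919). Its groups overlapped. RPL3L had 4, 5 and 3 counts in mock and 6, 3 and 5 in IFN-beta, too few to test. Reads of near-identical sequences could have been split or dropped in the authors' counting, so the levels of the paralogs are uncertain.

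The deviations of single libraries went with implied length, the count over TPM and not a measured mRNA length, among other genes as well. Ribosomal protein genes have a short implied length, 0.0181 to 0.453 of the median gene. Genes outside the family with at least 10 CPM were placed in 10 bins of implied length. The shortest bin, of 751 genes up to 0.305, deviated from their group mean by medians of -0.05, -0.02 and 0.07 log2 CPM in mock replicates 1 to 3 and by -0.06, 0.01 and 0.05 in IFN-beta replicates 1 to 3. In the longest bin, of 796 genes, the medians were 0.05, 0.03 and -0.08 in mock and 0.05, -0.01 and -0.03 in IFN-beta. The members deviated by -0.07, -0.02 and 0.09 in mock and by -0.08, 0.004 and 0.08 in IFN-beta, with the sign of the shortest bin in every library.

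Fold changes also differed by length. The median log2 fold change of IFN-beta over mock was 0.06 in the shortest bin of other genes and -0.07 in the longest, beside 0.09 in the members. The shortest bin and the members were not matched in implied length or level. Within the 71 members the relation ran the other way, with Pearson's r of 0.28 and Spearman's rho of 0.22 between log2 fold change and log2 implied length across genes that share their libraries. The part of length in the members' values was not tested.

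**Figure D4:**
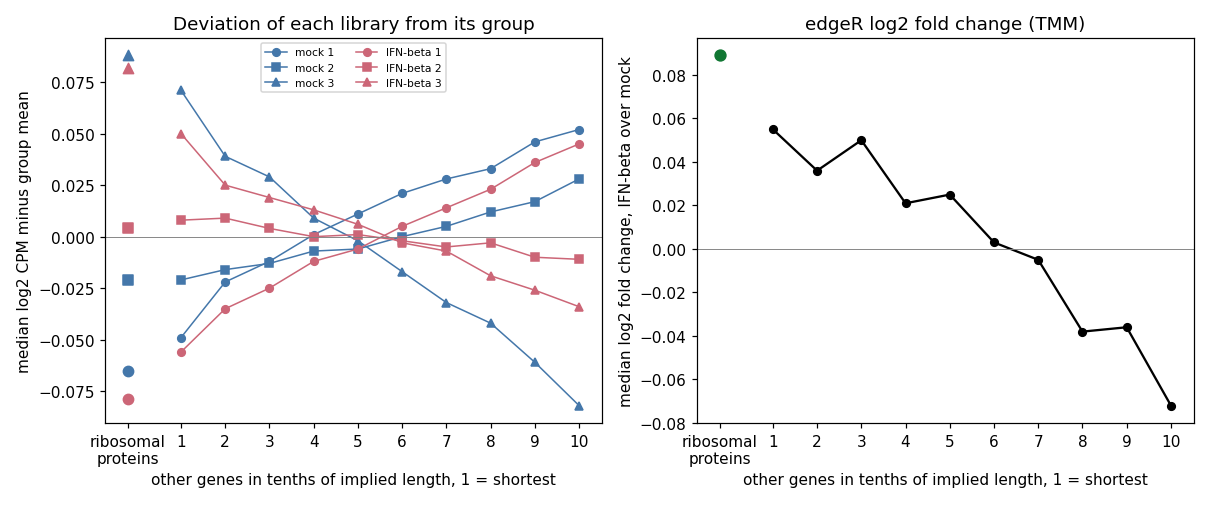
Left, the median deviation of each library from its group mean (log2 CPM) for ribosomal protein genes and for other genes of at least 10 CPM in 10 bins of implied length; right, the median edgeR log2 fold change of the same sets. Ribosomal protein genes lie at 0.09, the shortest bin at 0.06 and the longest bin at -0.07, and these sets were not matched in implied length or level.

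Many ribosomal protein genes carry small nucleolar RNAs (snoRNAs), guides of ribosomal RNA modification, within their introns. RefSeq's annotation of the assembly GRCg7b, used here for names and neighbours only, matched 71 of the 72 members by identifier and placed 43 snoRNA genes inside 23 of them. Of these 23 hosts 7 rose with TMM scaling, with a median log2 fold change of 0.09, and of 47 tested members without one 10 rose, also with a median of 0.09, beside 24.3% of all genes tested. No pair of members were next neighbours among protein-coding genes there.

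Of 5 ribosome genes outside the symbol rule, 1 rose with TMM scaling (20%, beside 24.3% of all genes tested). FAU, which encodes a ribosomal protein fused to a ubiquitin-like protein, had 454 ± 32.6 and 473 ± 20.3 CPM in mock and IFN-beta (log2 fold change 0.06, SE 0.04). RACK1, a scaffold on the small subunit, had 1436 ± 83.9 and 1486 ± 47.8 CPM (log2 fold change 0.05, SE 0.04), and RPS27L had 31.6 ± 0.168 and 32.6 ± 2.78 CPM (log2 fold change 0.04, SE 0.06). These 3 did not pass. RSL24D1, an assembly factor of the large subunit, rose from 77.7 ± 2.13 to 91.4 ± 5.14 CPM (log2 fold change 0.23, SE 0.05, edgeR adjusted p 0.000579), also with library size alone, where its log2 fold change was 0.14, but not on log2(TPM + 1) (0.11, limma adjusted p 0.0595).

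Among genes that build ribosomes many were called. Of 129 tested biogenesis genes, 68 rose and 5 fell with TMM scaling (52.7% and 3.88%), against 24.3% and 22.4% of all genes tested. With library size alone 39 rose and 22 fell (30.2% and 17.1%, beside 15.6% and 36.1% of all genes). On log2(TPM + 1) 32 rose and 24 fell (24.8% and 18.6%, beside 13.5% and 37.6%). The median log2 fold change was 0.13 (quartiles 0.03 and 0.23), and 0.03 with library size alone. Their mean log2 CPM lay higher in all 3 IFN-beta libraries than in any mock library, at 6.72, 6.71 and 6.73 in mock and 6.84, 6.84 and 6.87 in IFN-beta. The difference from the ribosomal protein genes was not tested.

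TSR1, a factor of small subunit maturation, rose from 225 ± 3.12 to 302 ± 3.55 CPM (log2 fold change 0.42, SE 0.03, edgeR adjusted p 3.29e-09). PWP2, of the small subunit processome, rose from 174 ± 3.74 to 224 ± 5.15 CPM (log2 fold change 0.36, SE 0.04), SURF6, a nucleolar protein, from 75.3 ± 1.51 to 101 ± 3.22 CPM (log2 fold change 0.42, SE 0.04), and SBDS, which readies the large subunit for use, from 73.8 ± 2.19 to 99.8 ± 4.901 CPM (log2 fold change 0.43, SE 0.05). These 4 also rose with library size alone and on log2(TPM + 1), and the 4 that fell kept their call under both. Both scalings lower most genes, with medians over all genes of -0.09 and -0.10 against -0.001 with TMM. A fall with TMM could thus hardly be lost under them, and its keeping is no support. IMP3, of the small subunit processome, fell from 60.4 ± 5.75 to 49.02 ± 2.15 CPM (log2 fold change -0.30, SE 0.06), and RRP8 fell from 41.6 ± 2.17 to 36.02 ± 1.43 CPM (log2 fold change -0.21, SE 0.06). NOL9, a polynucleotide kinase of rRNA processing, fell from 197 ± 9.77 to 181 ± 4.58 CPM (log2 fold change -0.12, SE 0.04) and DKC1, the pseudouridine synthase dyskerin, from 551 ± 2.61 to 517 ± 4.04 CPM (log2 fold change -0.09, SE 0.03). The other 7 of these 8 genes had edgeR adjusted p from 8.45e-08 to 0.021.

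Of 18 tested genes of RNA polymerase I, which transcribes ribosomal RNA, 5 rose and 1 fell with TMM scaling, and 3 rose and 5 fell both with library size alone and on log2(TPM + 1). All genes tested rose and fell at 24.3% and 22.4%, at 15.6% and 36.1%, and at 13.5% and 37.6% in these fits, and the list at 27.8% and 5.56% with TMM and at 16.7% and 27.8% in the other 2. POLR1E rose from 72.8 ± 0.361 to 88.4 ± 2.41 CPM (log2 fold change 0.28, SE 0.04), POLR2F, a subunit shared by the polymerases, from 67.1 ± 2.64 to 84.6 ± 6.74 CPM (log2 fold change 0.33, SE 0.06), TAF1CZ, matched to TAF1C by RefSeq, from 32.6 ± 1.84 to 40.6 ± 0.183 CPM (log2 fold change 0.32, SE 0.06) and TAF1D from 57.2 ± 1.02 to 64.5 ± 1.18 CPM (log2 fold change 0.17, SE 0.05). POLR1A, the largest subunit, fell from 139 ± 7.28 to 127 ± 4.65 CPM (log2 fold change -0.13, SE 0.04). TAF1D did not pass with library size alone.

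TOP mRNAs of translation factors and other proteins were counted beside them. Of 24 tested, 10 rose and 1 fell with TMM scaling (41.7% and 4.17%, beside 24.3% and 22.4% of all genes). With library size alone 1 rose and 4 fell (4.17% and 16.7%, beside 15.6% and 36.1%). On log2(TPM + 1) 0 rose and 4 fell (0% and 16.7%, beside 13.5% and 37.6%). The median log2 fold change was 0.08 with TMM and -0.02 with library size alone. EIF4A2, an initiation helicase, rose from 960.0 ± 15.5 to 1091 ± 34.3 CPM (log2 fold change 0.18, SE 0.03), NAP1L1, a histone chaperone, from 1108 ± 21.8 to 1208 ± 23.4 CPM (log2 fold change 0.12, SE 0.03), NACA, of the nascent chain complex, from 427 ± 19.3 to 467 ± 18.9 CPM (log2 fold change 0.13, SE 0.04) and NPM1, nucleophosmin, from 1218 ± 27.3 to 1304 ± 2.35 CPM (log2 fold change 0.10, SE 0.03). VIM, vimentin, fell from 1397 ± 40.6 to 1245 ± 14.4 CPM (log2 fold change -0.17, SE 0.03). With library size alone NAP1L1, NACA and NPM1 did not pass, and on log2(TPM + 1) NPM1 was at -0.02.

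Among 20 tested genes that control TOP mRNAs or rescue stalled ribosomes, 7 rose and 1 fell with TMM scaling (35% and 5%, beside 24.3% and 22.4% of all genes). With library size alone 4 rose and 4 fell (20% and 20%, beside 15.6% and 36.1%). On log2(TPM + 1) 1 rose and 5 fell (5% and 25%, beside 13.5% and 37.6%). RPS6KB1, the S6 kinase that phosphorylates RPS6, rose from 127 ± 4.24 to 184 ± 3.29 CPM (log2 fold change 0.54, SE 0.04, edgeR adjusted p 4.99e-10). PELO and HBS1L, partners in the rescue of stalled ribosomes, rose from 40.98 ± 1.84 to 55.8 ± 3.81 CPM (log2 fold change 0.45, SE 0.06) and from 29.3 ± 1.31 to 35.2 ± 1.63 CPM (log2 fold change 0.26, SE 0.06), and MDM2 rose from 125 ± 4.12 to 143 ± 2.13 CPM (log2 fold change 0.19, SE 0.04). RPS6KA1L, matched to RPS6KA1 by RefSeq, fell from 81.7 ± 3.42 to 59.4 ± 4.69 CPM (log2 fold change -0.46, SE 0.06). All 5 also passed with library size alone, which lowers most genes and could thus hardly undo the fall of RPS6KA1L. On log2(TPM + 1) RPS6KB1, HBS1L and MDM2 did not pass, and RPS6KB1, whose counts were not whole in any library, was at 0.14 with 33.8 ± 3.04 and 37.3 ± 2.08 TPM in mock and IFN-beta.

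For comparison, 11 of 74 tested mitochondrial ribosome genes rose and 1 fell with TMM scaling, with a median log2 fold change of 0.04, beside 24.3% and 22.4% of all genes. With library size alone 3 rose and 12 fell (4.05% and 16.2%, beside 15.6% and 36.1% of all genes), with a median of -0.05. On log2(TPM + 1) 2 rose and 20 fell (2.7% and 27%, beside 13.5% and 37.6%). Of 47 tested initiation and elongation factors 24 rose and 3 fell with TMM scaling (51.1% and 6.38%), with a median of 0.09. In the same 2 other fits 13 rose and 9 fell (27.7% and 19.1%), and 9 rose and 10 fell (19.1% and 21.3%). The mitochondrial ribosome genes stood at 5.68, 5.68 and 5.79 mean log2 CPM in mock and 5.71, 5.75 and 5.83 in IFN-beta. No test of the difference between these groups and the cytosolic ribosomal protein genes was made.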

How the data were processed

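RNA was measured in 3 mock and 3 IFN-beta libraries of HD11 cells, grouped by sample title. The authors deposited expected counts (estimated read counts, not whole for 2322 genes) and TPM per gene. Per the file headers they also deposited a table of log2 fold changes, p-values and their adjusted forms, which lists 14879 genes. The submitters' processing notes name GRCg6a and DESeq2. The aligner, counter, annotation and strandedness were not given in the sources used here, so overlapping or near-identical genes are uncertain.

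Members and lists were chosen with earlier results of these data known. Expected counts were rounded and fitted over the whole table with edgeR 4.0.16 in R 4.3.3 (filterByExpr, TMM, glmQLFit and glmQLFTest with group as the term, Benjamini-Hochberg adjustment, threshold 0.05), leaving 11091 genes. The biological coefficient of variation was 3.56%. SE was derived by dividing the fold change (log2, unsigned) by the root of its F statistic, and intervals are 95% on the t distribution of the fit. Fits were tested on simulated counts that, beyond depth, held no deviation shared by the genes of a library. That test does not cover the shared deviations of the members. It also changed few genes, in both directions alike, so it does not cover the choice of scaling. All 71 tested members are counted. Described individually were 18 members fixed for their roles (15 found), the 5 highest and 3 lowest by TPM, the 8 highest and 8 lowest log2 fold changes among called members, paralogs with their parents, and members removed by the filter; from other lists up to 4 called genes in each direction by adjusted p. RPS28, RPS29, RPL29, RPL31 and RPS14 were added after seeing values. List genes were matched by deposited symbol or RefSeq symbol; of 147 biogenesis entries 130 matched. Some genes are counted but not reported individually here. Alternatives were DESeq2 1.42.0, other scalings and filters, limma 3.58.1 on log2(TPM + 1) or log2(TPM + 0.1) after a TPM filter (mean 1 or more), the replicate number as a block, and leaving out each library. Libraries of a group differed by 1.67 to 4.48 times the degrees of freedom in a chi-square test, more than sampling noise. With 3 libraries a group, exact permutation has a floor of p = 0.1, so none was used. The labels describe independent biological replicates without saying how cultures were separated, so p-values measure the spread between these libraries.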

Additional observations from a re-analysis of the deposited data

How the results depend on the processing

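DESeq2, its size factors in edgeR, TMM factors from the other genes, no filter and a mean of at least 1 CPM kept the count of members higher within 1.5 times of 17 and the count lower at 0. Under upper quartile factors 0 members were higher, with 51 biogenesis genes higher and 10 lower, against 18.2% and 30.3% of all genes. With library size alone 0 members were higher (median log2 fold change -0.004), with 39 biogenesis genes higher and 22 lower, against 15.6% and 36.1% of all genes. With limma on log2(TPM + 1) and on log2(TPM + 0.1) 0 members were higher and 2 lower (median -0.018 in both), with 32 biogenesis genes higher and 24 lower in both. Of all genes, 13.5% and 13.6% were higher in these 2 fits and 37.6% lower in both. On log2(TPM + 1) without the filter 0 members were higher (median -0.018), with 31 biogenesis genes higher and 22 lower, against 9.36% and 24% of all genes. The cause was not tested. With library size alone the median of all genes was -0.094, against -0.001 with TMM. Leaving out 1 library at a time gave 1 to 62 members higher and 0 lower, medians of 0.05 to 0.14, 58 to 72 biogenesis genes higher and 2 to 5 lower. The difference in the members' share ranged from -0.144 to 0.137 percentage points of counts and from -0.594 to -0.126 of TPM without 1 library. The value of -0.594 is larger in size than the SD of either group with all libraries (0.442 and 0.443). The other settings cannot change a share of the library total, so they do not test it.

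Replicate numbers are shared by the groups. Over all genes tested, deviations of same-numbered libraries correlated at 0.083, 0.076 and 0.067, under the 0.1 set for pairing over all genes. Over genes of at least 10 CPM they correlated at 0.065, 0.226 and 0.164, above 0.1 for replicates 2 and 3. Over the members alone they correlated at 0.427, 0.204 and 0.357, and 62 of 71 members were higher in every same-numbered pair, against 35.1% of all genes. Every library correlated best with its own number, which is a hint from the data and not from the design. With the replicate block 54 members (76.1%) were higher and 0 lower, the 17 among them, against 27.7% and 25.2% of all genes. Chosen after seeing the data, library size alone with the replicate block gave 0 members higher and 2 lower (RPS28 and RPS29; median -0.004), with 48 biogenesis genes higher and 26 lower, against 17.7% and 40.6% of all genes.

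Of the 34 members with a planned value of their own, 11 changed sign with library size alone, 12 with the replicate block added and 4 with upper quartile factors. Among those called with TMM this was RPL3 alone with library size, without or with the block (-0.004 in both), and none with upper quartile factors. On each of the 3 TPM settings 20 of the 34 changed sign, 14 that were not called with TMM and 6 that were, namely RPL3 (-0.026), RPL7 (-0.012), RPS4X (-0.011), RPS3 (-0.004), RPS7 (-0.003) and RPL6 (-0.003). Depth was even between libraries, and the lowest CPM of a tested member in any library was 20.7 (RPL22L1), so counting error weighs most on RPL22L1.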
